A study of Mus musculus with 6 samples.

Results

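The heat shock chaperone genes described here are 10 genes of the deposited FPKM table, chosen by name from a family that earlier results of these data had covered: Hspa1a, Hspa1b, Hspa8, Dnajb1, Hsp90aa1, Hsp90ab1, Hsph1, Hspb1, Hspd1 and Hspe1. All 10 were found once each among the 21700 genes, and all 10 passed the filter on low values. They were measured in biliary epithelial cells, which line the bile ducts, sorted from livers of wild-type female C57BL/6 mice. The series held 3 libraries from pregnant females at dpc8, 8 days after mating, and 3 libraries from non-pregnant females. Livers were perfused and digested with enzymes, and the non-parenchymal cells were stained and sorted by flow cytometry before RNA extraction. The sources used here give no age and do not name the antibodies of the gate. Nothing in the labels ties the libraries of a group to different mice, and the p-values therefore describe the spread among these libraries, which may be technical.

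Heat shock proteins are molecular chaperones that bind unfolded proteins and help them to fold, refold or be degraded. Some are made at all times, while others are strongly induced when heat, toxins or tissue handling unfold proteins. Induction runs through the transcription factor HSF1, which binds heat shock elements, inverted repeats of the bases GAA and TTC, in the promoters of its targets. In epithelium that is exposed to bile acids, chaperones are part of the general defence against protein damage.

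Between pregnant and non-pregnant mice, no chaperone gene passed the test. For 8 of the 10 genes the difference between the group means was smaller than the SD of at least 1 group, and for Hspe1 and Hsp90aa1 it was larger than both SDs. Of the 10 genes, 0 were called at an adjusted p under 0.05 (limma, Benjamini-Hochberg over 11412 tested genes), where 0.0876% of all tested genes were called, 0.0613% as higher and 0.0263% as lower. At an unadjusted p under 0.05 there were also 0 of 10, while 13.4% of all tested genes lay under it. That count was 0 with limma-voom on recovered fragments, and 1 of 10, Hspe1, under each of 3 other scalings, with array weights and without non-pregnant library 3. The log2 changes, pregnant minus non-pregnant on the log2(FPKM + 1) scale, ran from -0.10 for Dnajb1 to 0.20 for Hspe1. Their median was -0.04, beside -0.02 over all tested genes. Only the mitochondrial co-chaperonin gene Hspe1 had groups that did not overlap, with all 3 pregnant libraries above all 3 non-pregnant ones, as in 9.9% of all tested genes.

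FPKM is the number of fragments per kilobase of exon scaled to library depth. Libraries held between 24448312 and 34285323 recovered fragments. The pregnant libraries resembled each other (Spearman correlations over tested genes from 0.991 to 0.995) more than the non-pregnant ones did (0.956 to 0.979). The 8 biliary markers, among them Krt19, Epcam and Sox9, summed to between 6819 and 7245 FPKM in pregnant and between 4912 and 6282 FPKM in non-pregnant libraries. Transcripts of other liver cells were also present, and no listed macrophage, hepatocyte or endothelial marker was at 0 in all libraries. The 13 macrophage markers summed to 114 to 191 FPKM in pregnant and 57.8 to 90.9 FPKM in non-pregnant libraries. Of the 11 tested, 5 were called as different, beside 0.0876% of all tested genes. The median log2 change of these 11, pregnant minus non-pregnant, was 2.42. The 10 hepatocyte markers summed to 2502 to 2868 FPKM in pregnant and 2900 to 3630 FPKM in non-pregnant libraries, and 1 of the 10 was called. The part of these cells in the chaperone values was not tested. The 8 endothelial markers summed to 196 FPKM in non-pregnant library 2 and to between 13.6 and 27.4 FPKM in the other 5 libraries. In such sorted bulk samples, fewer cells of a type and less RNA per cell cannot be told apart.

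Promoters are printed for the near-copies Hspa1a and Hspa1b, for Hspb1, the most variable of the genes, and for Hspe1, whose groups did not overlap, as the 250 bases before the start site (RefSeq, GRCm38.p6, the build also called mm10). Of the 10 genes 7 had an entry, with 10 start sites in all. Hspa8, Hsp90aa1 and Hsp90ab1 had none. The search was for GAANNTTC and TTCNNGAA, each of which reads the same on both strands, and matches could overlap. Of the 7 genes 6 held a match, in 7 of their 10 windows, and 12.8% of all 32851 promoter windows of that length held one. Both Dnajb1 windows held none. Capitals mark the matches below, each sequence running 5′ to 3′ on the strand of its gene, and a match is a run of letters, not evidence of binding.

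Hspa1a, minus strand, chr17:34972157-34972406: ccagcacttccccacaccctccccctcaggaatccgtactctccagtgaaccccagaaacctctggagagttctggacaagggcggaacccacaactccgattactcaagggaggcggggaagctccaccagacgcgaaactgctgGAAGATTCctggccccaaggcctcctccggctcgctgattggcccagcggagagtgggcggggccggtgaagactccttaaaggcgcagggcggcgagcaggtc
Hspa1b, minus strand, chr17:34959239-34959488: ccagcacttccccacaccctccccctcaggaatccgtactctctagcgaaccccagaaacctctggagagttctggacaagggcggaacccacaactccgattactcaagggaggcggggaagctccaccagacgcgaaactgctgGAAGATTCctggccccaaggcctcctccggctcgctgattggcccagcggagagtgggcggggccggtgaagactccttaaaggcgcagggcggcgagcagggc
Hspb1, plus strand, chr5:135887669-135887918: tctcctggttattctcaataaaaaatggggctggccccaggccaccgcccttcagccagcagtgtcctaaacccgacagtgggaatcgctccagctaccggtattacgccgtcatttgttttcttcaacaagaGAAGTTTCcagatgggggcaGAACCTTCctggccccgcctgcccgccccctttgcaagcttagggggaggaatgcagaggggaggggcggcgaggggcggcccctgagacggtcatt
Hspe1, plus strand, chr1:55087898-55088147: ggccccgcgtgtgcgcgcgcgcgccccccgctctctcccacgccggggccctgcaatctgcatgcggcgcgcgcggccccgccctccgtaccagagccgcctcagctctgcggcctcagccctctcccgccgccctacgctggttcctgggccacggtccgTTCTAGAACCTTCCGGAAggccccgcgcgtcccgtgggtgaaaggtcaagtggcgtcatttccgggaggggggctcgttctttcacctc

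The Hspa1a and Hspa1b promoters are near copies. They were identical at 247 of 250 positions and differed by C44T, T47C and T249G, with the Hspa1a base first and positions counted from 1 at the upstream end. Both held the same match, GAAGATTC, beginning 104 bases before the start site. Hspb1 held a pair of matches, GAAGTTTC and GAACCTTC, beginning 117 and 97 bases before its start. The Hspe1 window held an unbroken run of 18 bases made of alternating repeats, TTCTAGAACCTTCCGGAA, at chr1:55088059-55088076. The same run lies, read on the other strand, in the Hspd1 window at chr1:55087933-55088182, whose start site is inside the annotated Hspd1 span. The Hspd1 window directly before that span, chr1:55088244-55088493, held no match. The chaperonin genes stand head to head and their annotated spans share 112 bases. Hsph1, not printed, held TTCTCGAA in the windows of both its start sites.

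Level of expression, compared per length as FPKM, put Hsp90ab1 far above the rest. Averaged over the 6 libraries, Hsp90ab1 stood at 583 FPKM (rank 20 of the 21700 genes), Hspa8 at 183 FPKM (rank 120) and Hsp90aa1 at 93.03 FPKM (rank 296). The ranges of these 3 over the 6 libraries did not overlap, and Hsp90aa1 did not overlap with the next gene, Hspa1b, at 65.6 FPKM. Below them came Hspb1 (45.4 FPKM), Hspd1 (41.001 FPKM), Dnajb1 (34.8 FPKM) and Hspa1a (29.9 FPKM), and from Hspa1b to Hspa1a each neighbouring pair had overlapping ranges. Hsph1 (15.3 FPKM) and Hspe1 (14.8 FPKM) were lowest and overlapped with each other but not with Hspa1a. Many chaperone transcripts resemble those of other genes, which bears on how exact these levels are. The share of 75-base stretches of a gene's GENCODE vM21 transcripts that also occur in a transcript of another gene was 55.8% for Hspa1b, 54.2% for Hspa1a, 46.4% for Hspb1, 42.8% for Hsp90aa1 and 32.8% for Hspa8. It was 29.6% for Hspd1, 11.9% for Hspe1, 0.537% for Hsp90ab1 and 0 for Dnajb1 and Hsph1. How fragments that match several genes were counted is not stated in these sources, so the levels of the genes with large shares are uncertain.

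**Figure D1:**
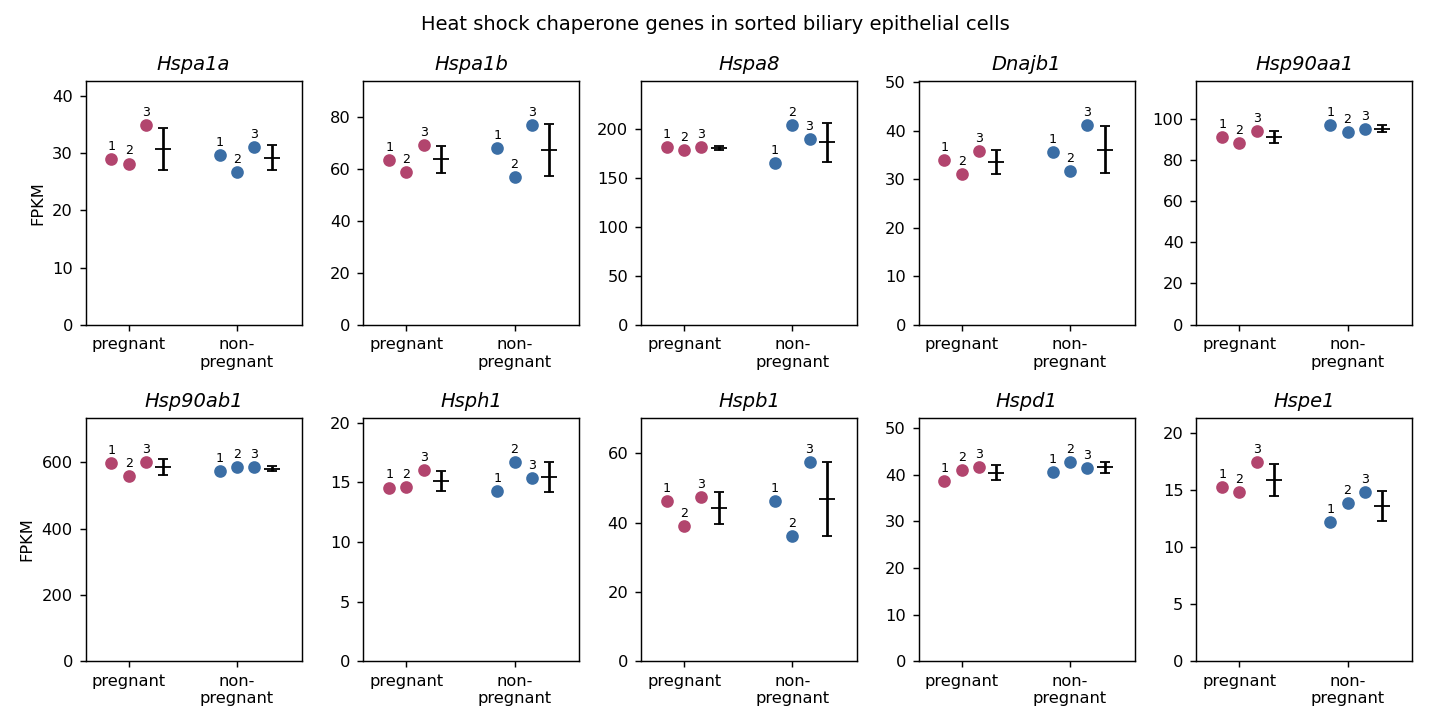
FPKM of each chaperone gene (vertical axes, starting at 0) in the pregnant and non-pregnant libraries, numbered 1 to 3, with the mean and SD of each group (n = 3) as a bar beside the points. Only for Hspe1 do the groups not overlap, at 14.9 to 17.5 FPKM in pregnant and 12.2 to 14.9 FPKM in non-pregnant libraries.

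The stress-inducible cytosolic HSP70 genes Hspa1a and Hspa1b encode near-identical proteins that are scarce in unstressed tissue and rise steeply on heat shock. They are neighbours on chromosome 17, 9951 bases apart, at 34969190 to 34972156 (Hspa1a, ENSMUSG00000091971) and 34956436 to 34959238 (Hspa1b, ENSMUSG00000090877). Hspa1a had 28.9, 28.2 and 34.9 FPKM in pregnant libraries 1 to 3, against 29.7, 26.8 and 31.02 FPKM in non-pregnant libraries 1 to 3. The groups overlapped, and library 3 was the highest of its group in both. Hspa1b had 63.5, 58.8 and 69.2 FPKM in pregnant and 68.1, 57.2 and 77.1 FPKM in non-pregnant libraries, where the highest and the lowest value of all 6 both lay in the non-pregnant group. The log2 change was 0.07 ± 0.103 for Hspa1a and -0.07 ± 0.121 for Hspa1b (SE; limma adjusted p of 0.770 and 0.791). Neither direction held in every leave-out, with -0.03 for Hspa1a without pregnant library 3 and 0.03 for Hspa1b without non-pregnant library 3.

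Where a fragment that matches both copies is given to 1 of them, their sum does not depend on that choice. Whether such fragments were kept is not stated, and any that were dropped would be missing from the sum too. Hspa1a and Hspa1b together averaged 94.5 ± 8.76 FPKM in pregnant and 96.6 ± 12.1 FPKM in non-pregnant libraries (SD, n = 3 each; exact permutation test, two-sided, p = 0.80, where 3 against 3 cannot go below 0.10). Without non-pregnant library 3 the difference of these means changed sign, to 3.63 FPKM from -2.10 FPKM with all libraries. Hspa1b stood at 1.98 to 2.20 times Hspa1a in pregnant and 2.14 to 2.48 times in non-pregnant libraries, so the groups overlapped in that ratio.

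Dnajb1 encodes the J-domain co-chaperone that delivers clients to HSP70 and starts its ATP cycle, and it is a classic HSF1 target. It lies on chromosome 8 from 83608193 to 83612653 (ENSMUSG00000005483). Its values were 33.9, 30.96 and 35.7 FPKM in pregnant and 35.6, 31.6 and 41.2 FPKM in non-pregnant libraries. Non-pregnant library 3 was highest and the groups overlapped. The log2 change was -0.10 ± 0.109 (SE), with a 95% interval for the fold from 0.784 to 1.11 (limma adjusted p = 0.679). Leaving out non-pregnant library 3 brought it to -0.0024, and leaving out non-pregnant library 2 to -0.188.

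Hspb1 encodes the small heat shock protein called HSP25 in mice, which holds unfolded proteins without using ATP and steadies actin filaments. It lies on chromosome 5 from 135887919 to 135889563 (ENSMUSG00000004951). It varied most of the 10, with 46.2, 38.9 and 47.4 FPKM in pregnant and 46.3, 36.2 and 57.5 FPKM in non-pregnant libraries. The highest and the lowest library were both non-pregnant, library 3 and library 2. The SD over the 6 libraries was 0.23 on the log2 scale, and the fold had the widest 95% interval, from 0.738 to 1.25 (log2 change -0.06 ± 0.163, SE; limma adjusted p = 0.874). Without non-pregnant library 3 the log2 change was 0.10 and without pregnant library 2 it was 0.03, so its direction rests on single libraries.

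Hspa8 encodes HSC70, the constitutive cytosolic HSP70, which also strips clathrin from vesicles and feeds chaperone-mediated autophagy. It lies on chromosome 9 from 40800984 to 40810087 (ENSMUSG00000015656). In pregnant libraries it stood at 182, 178 and 181 FPKM, against 165, 204 and 189 FPKM in non-pregnant libraries. The pregnant values fell inside the non-pregnant range, with an SD of 1.83 FPKM in pregnant and 19.6 FPKM in non-pregnant libraries (n = 3 each). The highest value was in non-pregnant library 2, which also had the highest endothelial marker sum (196 FPKM), and the part of those transcripts in the value was not tested. Its log2 change was -0.04 (95% interval of the fold 0.828 to 1.14; limma adjusted p = 0.860), and without non-pregnant library 2 it was 0.03.

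Hsph1 encodes HSP110, which exchanges the nucleotide on HSP70 and helps to dissolve aggregates. It lies on chromosome 5 from 149614287 to 149636376 (ENSMUSG00000029657). It had 14.6, 14.6 and 16.05 FPKM in pregnant and 14.2, 16.7 and 15.3 FPKM in non-pregnant libraries. As for Hspa8, the highest value was in non-pregnant library 2 and the lowest in non-pregnant library 1. The log2 change was -0.03 ± 0.0835 (SE; limma adjusted p = 0.871), and without non-pregnant library 2 it was 0.02.

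The ratio of inducible to constitutive cytosolic HSP70 had about the same mean in both groups, with a wide spread among the non-pregnant libraries. Hspa1a plus Hspa1b stood at 0.508, 0.488 and 0.574 of Hspa8 in pregnant and at 0.592, 0.411 and 0.571 in non-pregnant libraries. The mean ratios were 0.523 ± 0.0452 and 0.524 ± 0.0988 (SD, n = 3 each), and the non-pregnant range enclosed the pregnant one. Such a ratio within a library does not depend on how the library was scaled. It does depend on how fragments that match several genes were counted, which is not stated.

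The cytosolic HSP90 genes encode the chaperones that hold kinases and steroid receptors ready for their ligands, Hsp90ab1 the constitutive and Hsp90aa1 the more inducible form. Hsp90ab1 (ENSMUSG00000023944; chromosome 17, 45567775 to 45573271) stood at 596, 559 and 601 FPKM in pregnant and 572, 584 and 586 FPKM in non-pregnant libraries. The non-pregnant values fell inside the pregnant range. Hsp90aa1 (ENSMUSG00000021270; chromosome 12, 110690605 to 110702728) stood at 90.9, 88.2 and 93.8 FPKM in pregnant and 96.9, 93.5 and 94.9 FPKM in non-pregnant libraries. Pregnant library 3 lay just above non-pregnant library 2, so these groups overlapped by a narrow margin. The log2 changes were 0.01 ± 0.0989 for Hsp90ab1 and -0.06 ± 0.0733 for Hsp90aa1 (SE; limma adjusted p of 0.962 and 0.692). That of Hsp90ab1 turned to -0.0074 without pregnant library 3 and to -0.0014 without pregnant library 1.

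Hsp90ab1 exceeded Hsp90aa1 in FPKM by 6.56, 6.34 and 6.41 times in pregnant and by 5.91, 6.25 and 6.17 times in non-pregnant libraries. The groups did not overlap in this ratio, which was singled out after its values were seen. Like the HSP70 ratio, it depends on how fragments that match several genes were counted, which is not stated. The difference of means was 0.329, and the exact permutation test (two-sided) gave p = 0.10, the smallest possible, or 0.30 adjusted over the 6 sums and ratios compared. The HSP90 genes had the smallest and the second smallest spread of the 10 over the 6 libraries, with SDs of 0.0385 and 0.0473 on the log2 scale. Among the 5052 tested genes that averaged 10 FPKM or more, 1.11% had a smaller SD than Hsp90ab1 and 2.63% a smaller one than Hsp90aa1.

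Hspd1 and Hspe1 encode HSP60 and HSP10, the barrel and the lid of the mitochondrial chaperonin, which folds proteins imported into the mitochondrial matrix. They stand head to head on chromosome 1 (Hspd1, ENSMUSG00000025980, 55077835 to 55088243; Hspe1, ENSMUSG00000073676, 55088132 to 55091307) and the run of repeats printed above lies inside the Hspd1 span, before the start of Hspe1. Whether fragments were assigned by strand is not stated, so those from the shared 112 bases cannot be placed. Hspd1 had 38.6, 41.05 and 41.7 FPKM in pregnant and 40.6, 42.8 and 41.3 FPKM in non-pregnant libraries, with overlapping groups and a log2 change of -0.04 ± 0.0709 (SE; limma adjusted p = 0.805). Hspe1 had 15.3, 14.9 and 17.5 FPKM in pregnant and 12.2, 13.9 and 14.9 FPKM in non-pregnant libraries. The lowest pregnant and the highest non-pregnant value were 14.86 and 14.85 FPKM, so the gap between the groups was far smaller than the spread within either.

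Hspe1 averaged 15.9 ± 1.42 FPKM in pregnant and 13.7 ± 1.32 FPKM in non-pregnant libraries (SD, n = 3 each), a ratio of 1.16. Its log2 change of 0.20 ± 0.0969 (SE) was the highest of the 10 genes, with a 95% interval for the fold from 0.986 to 1.35. It did not pass (limma adjusted p = 0.398). It had 600, 677 and 653 fragments in pregnant and 517, 618 and 771 in non-pregnant libraries, and the ratio of the pooled fragments per library total was 1.16 with a 95% interval from 1.08 to 1.23 for counting error only. With limma array weights, which gave non-pregnant libraries 2 and 3 weights of 0.411 and 0.205 and non-pregnant library 1 a weight of 3.68, Hspe1 was called as higher (log2 change 0.29, limma adjusted p = 0.0332). In that fit 11.4% of all tested genes were called, 6.31% as higher and 5.09% as lower. Over the 17 alternatives its limma adjusted p ran from 0.0332 to 0.746. Hspd1 stood at 2.53, 2.76 and 2.38 times Hspe1 in FPKM in pregnant and at 3.31, 3.08 and 2.78 times in non-pregnant libraries. These ratios did not overlap by a narrow margin and were singled out after their values were seen (exact permutation test, two-sided, p = 0.10, or 0.30 adjusted over 6). They too depend on how fragments that match several genes were counted, which is not stated.

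**Figure D2:**
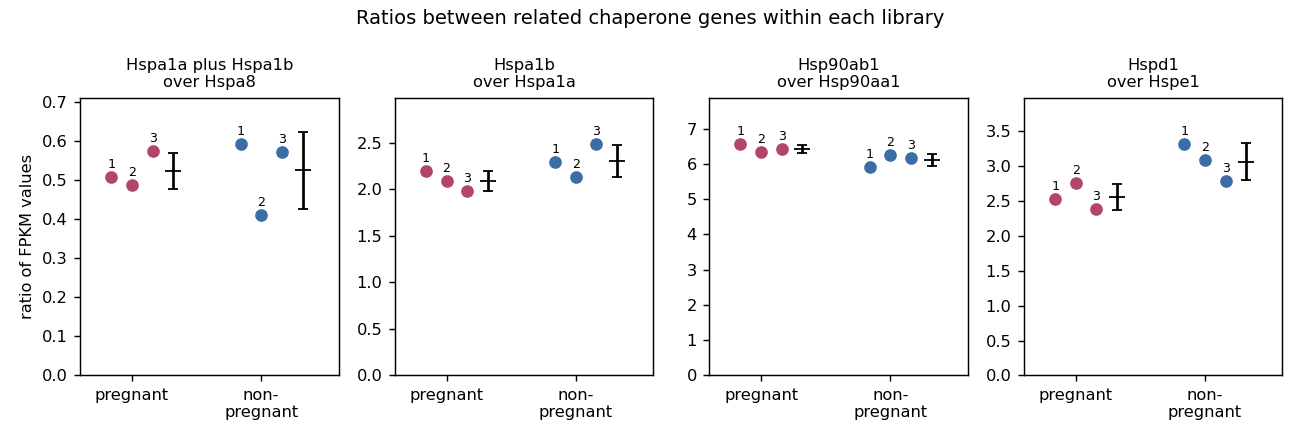
Ratios of FPKM values between related chaperone genes (vertical axes, starting at 0) in the pregnant and non-pregnant libraries, numbered 1 to 3, with mean and SD (n = 3) beside the points. Hsp90ab1 over Hsp90aa1 and Hspd1 over Hspe1 do not overlap between groups, while Hspa1a plus Hspa1b over Hspa8 averages 0.523 in pregnant and 0.524 in non-pregnant libraries.

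The intervals of the 10 changes rest on the spread among these libraries, which may be technical, and set no bound on differences between mice. The 95% intervals of the fold, on the FPKM + 1 scale, all contained no change and lay between 0.738 (Hspb1, lower bound) and 1.35 (Hspe1, upper bound). For the HSP90 genes they ran from 0.860 to 1.18 (Hsp90ab1) and from 0.851 to 1.08 (Hsp90aa1), and for Hspa8 from 0.828 to 1.14. A p that misses the threshold does not show that the groups were alike, and differences inside these bounds could not be told from the spread between libraries with 3 a group.

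**Figure D3:**
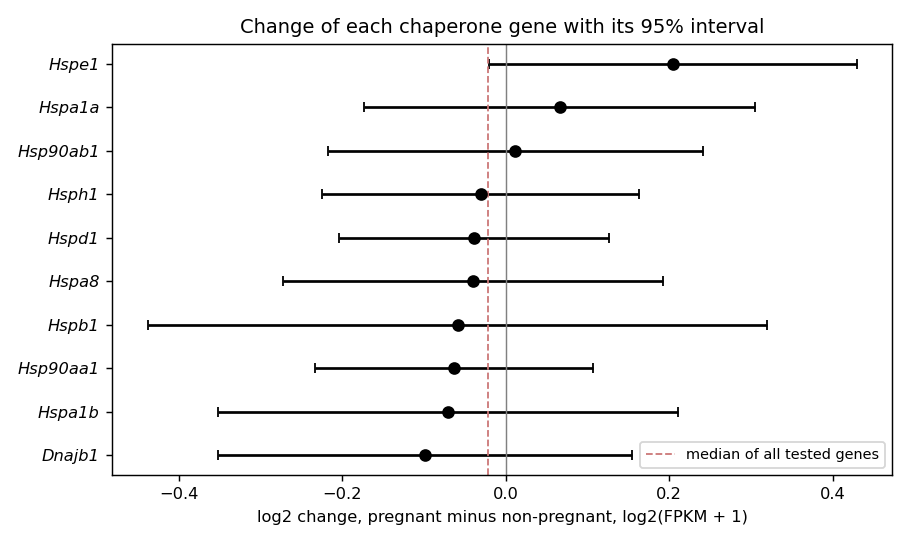
Log2 change of each chaperone gene, pregnant minus non-pregnant on the log2(FPKM + 1) scale (horizontal axis), with its 95% interval from limma. All 10 intervals include 0, and the points run from -0.10 (Dnajb1) to 0.20 (Hspe1), with the median of all tested genes at -0.02 as a dashed line.

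Some of the chaperone genes shared their high and low libraries within each group. Hspa1a, Hspa1b, Dnajb1 and Hspb1 had the same order of libraries, 3 over 1 over 2, within the pregnant and within the non-pregnant group. That order in both groups was found in 3.44% of all tested genes and was singled out after the values were seen. Within the pregnant group it was found in 18.9% of all tested genes, and within the non-pregnant group in 25.5%. Hspa1a shares 52.7% of its 75-base stretches with Hspa1b, and Hspa1b 55.8% with Hspa1a, so their values may share fragments. Replicate numbers are those of the sample titles, and nothing ties library 3 of one group to library 3 of the other. In these 4 genes pregnant library 2 deviated from the gene's own mean by -0.08 to -0.20 on the log2 scale, and non-pregnant library 2 by -0.13 to -0.30. Non-pregnant library 3 was 0.35 above the mean for Hspb1, 0.24 for Hspa1b and for Dnajb1 and 0.06 for Hspa1a. Hspa8, Hsph1 and Hspd1 showed another order, each highest in non-pregnant library 2 and lowest or next to lowest in non-pregnant library 1. Non-pregnant library 2 is the one with 196 FPKM of endothelial markers, and non-pregnant library 3 had the most fragments (34285323) and the lowest sum of biliary markers (4912 FPKM). The part of these differences in the pattern was not tested.

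**Figure D4:**
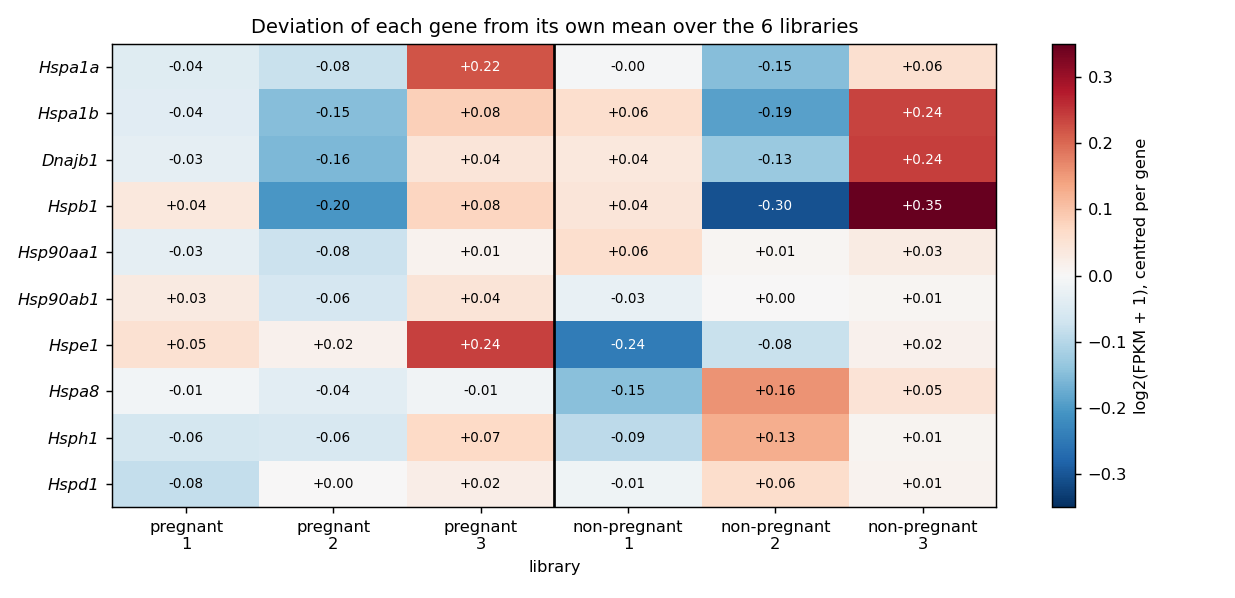
Deviation of each chaperone gene (rows) from its own mean over the 6 libraries (columns, pregnant then non-pregnant) in log2(FPKM + 1), red above and blue below the mean. The upper 4 rows share the order of libraries within each group, not over all 6. Hspb1 ran from -0.30 in non-pregnant library 2 to 0.35 in non-pregnant library 3.

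As a group the 10 genes were about as steady as other genes. The median SD over the 6 libraries was 0.114 on the log2 scale, beside 0.132 for all tested genes and 0.125 for the 5052 tested at 10 FPKM or more on average, and 5 of the 10 lay below 0.125. The SD in FPKM was larger in the non-pregnant group for 5 of the 10 genes, a smaller share than the 74.7% of all tested genes. The genes whose values over the 6 libraries were most like the chaperones' mean profile were Pex14, Rab1a, Slc16a1, AW554918, Ythdc1 and Gnl3, with Pearson correlations from 0.975 to 0.991. These were picked as the highest of 11402 genes over 6 libraries and are a description only.

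Among the regulators of the response, Hsf1, the master heat shock factor, had overlapping groups and averaged 8.06 ± 0.206 FPKM in pregnant and 8.06 ± 0.485 FPKM in non-pregnant libraries (SD, n = 3 each). Hsf2, a related factor that can pair with it, had 2.06, 2.23 and 1.93 FPKM in pregnant and 2.31, 2.499 and 2.43 FPKM in non-pregnant libraries, and Hsbp1, which binds heat shock factor, had 41.6, 40.2 and 40.7 FPKM in pregnant and 35.5, 39.97 and 34.7 FPKM in non-pregnant libraries. Both of these had groups that did not overlap, Hsf2 lower and Hsbp1 higher in pregnancy. Groups that do not overlap were found for 22.1% of all tested genes, 9.9% higher and 12.2% lower. Of the 4 tested regulators 0 passed (limma adjusted p of 0.421 and above).

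Beyond the 10 genes, 9 lists of related genes held 110 genes, of which 103 were tested and 0 were called over all genes tested (limma, Benjamini-Hochberg). At an unadjusted p under 0.05 there were 10 higher and 4 lower, beside 7.09% and 6.3% of all tested genes. In the rest of the HSP70 and HSP110 family the median log2 change was 0.05 over 10 tested genes. In it Hspa5, the endoplasmic reticulum HSP70 called BiP, stood at 254, 239 and 247 FPKM in pregnant and 212, 222 and 235 FPKM in non-pregnant libraries, where the groups did not overlap (limma adjusted p = 0.473). Hspa9, the mitochondrial HSP70 called mortalin, averaged 61.2 ± 3.04 FPKM in pregnant and 65.8 ± 4.65 FPKM in non-pregnant libraries (SD, n = 3 each), with overlapping groups. It did not pass (limma adjusted p = 0.578). The TRiC and prefoldin list, the cytosolic chaperonin for actin and tubulin and its helper, held 2 of 14 genes with a change above 0 (median log2 change -0.09). Mitochondrial chaperones and proteases held 5 of 12 above 0 (median -0.09). The HSP90 family and co-chaperones held 8 of 14 (median 0.01), and nucleotide exchange and HSP70 partner genes 5 of 10 (median 0.02). Over all tested genes, 5107 of 11412 had a change above 0 (median -0.02).

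Of the small heat shock proteins other than Hspb1, 0 of 5 tested genes passed. Groups did not overlap for 2 of them, Cryab and Hspb6, both higher in pregnant, beside 9.9% of all tested genes. All 5 tested genes of that list had a log2 change above 0, beside 5107 of all 11412 tested genes. Their median was 0.38, beside -0.02 over all tested genes. Cryab, which encodes alpha B-crystallin, had 110, 99.2 and 114 FPKM in pregnant and 69.6, 91.3 and 55.5 FPKM in non-pregnant libraries. Its groups did not overlap, and its log2 change was 0.60 ± 0.168 (SE; limma adjusted p = 0.295). Its annotated span overlaps that of Hspb2, another gene of the list, on the opposite strand, so these values may share fragments. Hspb8, which works with the co-chaperone Bag3 in selective autophagy, had 28.9, 20.9 and 27.1 FPKM in pregnant and 18.3, 21.6 and 16.3 FPKM in non-pregnant libraries, with overlapping groups. Bag3 itself had 90.6, 79.9 and 91.8 FPKM in pregnant and 75.1, 62.8 and 75.96 FPKM in non-pregnant libraries, where the groups did not overlap (log2 change 0.29 ± 0.104, SE; limma adjusted p = 0.323). Without non-pregnant library 2 Cryab was called (log2 change 0.78, limma adjusted p = 0.0380), in a fit that called 1.17% of all tested genes. With array weights, where 11.4% were called, it was called too (limma adjusted p = 0.0115). Biliary marker sums were also higher in all 3 pregnant libraries, as given above, and their part in these values was not tested.

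Of the 18 J-domain genes 0 passed, and 4 had groups that did not overlap, 1 higher and 3 lower, beside 9.9% and 12.2% of all tested genes. Dnajb4, a partner of HSP70 like Dnajb1, had 22.0, 19.1 and 23.0 FPKM in pregnant and 16.4, 15.3 and 15.5 FPKM in non-pregnant libraries (log2 change 0.42 ± 0.0858, SE; limma adjusted p = 0.233). Dnajc7, which links HSP70 and HSP90, had 17.3, 17.2 and 15.6 FPKM in pregnant and 22.6, 21.03 and 24.9 FPKM in non-pregnant libraries (log2 change -0.43 ± 0.0859, SE; limma adjusted p = 0.226). In both genes the groups did not overlap. Of the 18 genes of this list 6 were above 0, with a median of -0.06, beside 5107 of all 11412 tested genes above 0. Fkbp5, an HSP90 co-chaperone that is a standard glucocorticoid-induced gene, had 8.95, 6.93 and 6.81 FPKM in pregnant and 9.65, 8.74 and 28.7 FPKM in non-pregnant libraries, so that non-pregnant library 3 alone stood high.

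Immediate-early genes, like the inducible chaperones, answer quickly to handling and stress. Of the 19 in the list 13 had a log2 change above 0, beside 5107 of all 11412 tested genes. The list had 0 genes called and a median of 0.22. At an unadjusted p under 0.05 there were 5 higher and 0 lower, beside 7.09% and 6.3% of all tested genes. Groups did not overlap for 6, all higher in pregnant, beside 9.9% of all tested genes. The changes of the list ran from -0.18 to 0.51, the highest being that of Ier3, an early response gene that limits cell death. Ier3 stood at 473, 411 and 402 FPKM in pregnant and 297, 314 and 290 FPKM in non-pregnant libraries (log2 change 0.51 ± 0.104, SE; limma adjusted p = 0.229). The values of Hspa1a, Hspa1b and Dnajb1 in the same libraries overlapped between the groups, as given above. The part of handling or stress in any of these values was not tested.

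**Figure D5:**
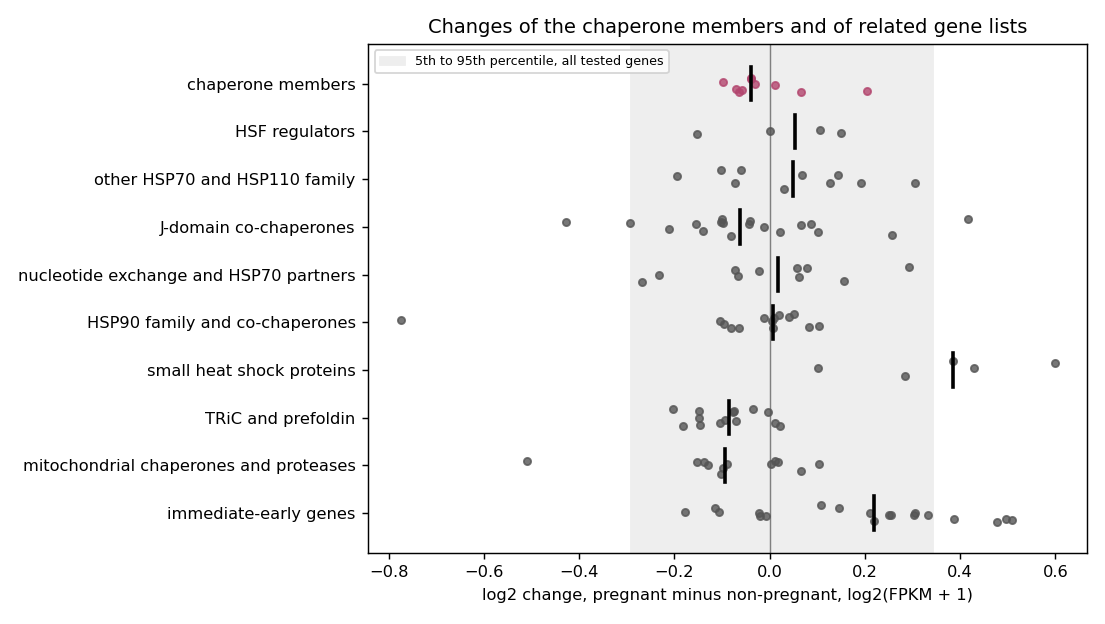
Log2 change, pregnant minus non-pregnant on the log2(FPKM + 1) scale (horizontal axis), of each tested gene of the chaperone members and of 9 related lists (rows), with list medians as black bars and the range from the 5th to the 95th percentile of all tested genes, -0.29 to 0.34, in grey. The 10 chaperone members all lie inside that range, and 3 of the 5 small heat shock proteins lie above it.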

How the data were processed

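Per the file headers and the labels, the authors deposited FPKM values, one column per library, for 21700 genes. RNA was depleted of ribosomal RNA before library preparation, per the labels' protocols. The build mm10 and the tools DESeq2 1.30.1, HTSeq 0.13.5, STAR 2.7.9a and cutadapt 3.4 are listed in the submitters' processing notes without their roles. Multiplying FPKM by GENCODE vM21 union exon length and dividing by a step fitted to each library gave whole fragments for 98.5% of the nonzero values (tolerance 0.01), which are the recovered fragments. They carry no molecular identifiers, so intervals made from them cover counting error only.

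Groups came from the sample titles. For the 11412 genes that averaged 1 FPKM or more, log2(FPKM + 1) was tested two-sided by limma-trend (limma 3.58.1, R 4.3.3) with Benjamini-Hochberg adjustment. The added 1 makes changes of low genes look smaller. Sums and ratios were tested with exact permutation tests, and figures and tables made with Python 3.11.15. The text names the 10 members, at most 3 genes of a list by smallest p, and always Hsf1, Hsf2, Hspa5, Hspa9, Bag3 and Hspb8. The members and lists were chosen with earlier results of these data known.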

Additional observations from a re-analysis of the deposited data

How the results depend on the processing

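Of the 170 values of the 10 genes under 17 alternatives, 158 kept their direction and stayed on the same side of the threshold, 11 changed sign without being called and 1, Hspe1 with array weights (0.29), became called. Those that changed sign were Hsp90ab1 with quantile normalization (-0.0028), Hspa8 and Hsph1 with array weights (0.086 and 0.0304), and 8 when a library was left out. Leaving out each library in turn gave log2 changes from -0.0276 (without pregnant library 3) to 0.122 for Hspa1a, from -0.183 to 0.0293 (without non-pregnant library 3) for Hspa1b, and from -0.123 to 0.0283 (without non-pregnant library 2) for Hspa8. They ran from -0.0074 (without pregnant library 3; also below 0 without pregnant library 1) to 0.0447 for Hsp90ab1, from -0.0839 to 0.025 (without non-pregnant library 2) for Hsph1, and from -0.225 to 0.101 (without non-pregnant library 3; also above 0 without pregnant library 2) for Hspb1. They ran from -0.188 (without non-pregnant library 2) to -0.0024 (without non-pregnant library 3) for Dnajb1, which stayed below 0. The median of the 10 genes ran from -0.07 to 0.01 when a library was left out, and the Hspa1a and Hspa1b sum differed between groups by -8.44 to 3.63 FPKM, with a changed sign at 3.63 without non-pregnant library 3 and at 1.64 without pregnant library 2. With array weights 11.4% of all tested genes were called, and 1 of the 10 chaperone genes was called. So were 2 of 18 J-domain, 2 of 10 nucleotide exchange and HSP70 partner, 3 of 5 small heat shock protein and 2 of 19 immediate-early genes. Over all genes tested limma called 10 genes, 0 with a pseudocount of 5 FPKM (1516 at an unadjusted p under 0.05), 0 with no filter on low values (2258 unadjusted), 4 at a mean of at least 5 FPKM, 5 with robust empirical Bayes, 1301 with array weights, 1 with limma-voom, and 0 to 133 when a library was left out (133 without non-pregnant library 2, 12 without pregnant library 3 and 0 without each of the other 4, with 857 to 1419 unadjusted). Of the 5 tested small heat shock proteins 0 to 1 were called when a library was left out. The 1 was called without non-pregnant library 2, where 1.17% of all tested genes were called. The cause of these shifts was not tested.

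The replicate numbers, taken from the titles, share only a number between groups, and the description of the third non-pregnant library gives it another number. Deviations from the group means correlated at 0.0679, 0.0186 and -0.138 between same-numbered libraries, and 0 of 6 libraries correlated best with their own number. The replicate block called 13 genes over all tested, 13 higher and 0 lower, and 0 of the 10 chaperone genes.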
